A study of Homo sapiens with 15 samples.

Results

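The RNAs described here are the short structured transcripts BCYRN1, RN7SL1, RN7SL2, RN7SK, RMRP and RPPH1, 6 symbols that correspond to 7 of the 57500 gene identifiers counted. They were chosen by name as RNA polymerase III or short structured transcripts, and were kept where 2 or more replicates of any 1 condition reached 10 counts. BCYRN1 and RN7SL2 were kept, and each passed that limit in all 5 conditions, so neither entered only through a group in which it was high. Of the other 5 identifiers, 4 had no count in any library, and the remaining one, an RMRP identifier, reached at most 8 counts. The lowest count of a kept RNA was 653, for RN7SL2 in input replicate 3, and the nearest values below the limit were the 8 and 4 counts of RMRP in PEG replicates 1 and 2. The levels of BCYRN1 against input were known when the RNAs were chosen, so its values against input are given as a description.

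Cytosolic extract (CE) of U2OS cells, a human osteosarcoma line labelled wild type, was used in translation reactions and the material that sedimented was sequenced as poly(A) RNA. Reactions ran for 2 h without an addition (mock), with 250 nM dsRNA, with 2 µg/ml silvestrol, which inhibits translation initiation, or with 1% PEG, a molecular crowder. The reference was untreated CE that had not been pelleted (input), and each of the 5 groups held 3 biological replicates, 15 libraries in all. The study's methods name the pelleted condensates after YFP-tagged G3BP1, whereas the labels give wild-type cells, and the files do not settle which applies. A mock pellet therefore holds whatever sedimented without an inducer, and the same input libraries and the same mock libraries serve in several comparisons.

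Total counts ranged from 15341973 to 46939993 per library (median 35584710), and the PEG libraries were the smallest, with 15341973 to 25675182. The mesenchymal marker VIM was at 906 to 2989 normalised CPM (read counts scaled to a common library size with edgeR's TMM method) in every library. The osteogenic regulator RUNX2 was at 44.6 to 79.2. The osteoblast genes SP7 and BGLAP did not exceed 0.62, the blood marker PTPRC 0.457 and the liver marker ALB 0.0409. Of the other markers listed, COL1A1 was at 335 to 1764 normalised CPM, whereas COL1A2 did not exceed 0.411. ALPL was at 1.37 to 5.44 and SPP1 at 1.61 to 5.97, and the epithelial marker CDH1 did not exceed 1.2. Whether the RNAs compared below lost or gained molecules, or only changed their share of the RNA in a library, cannot be told apart from these counts.

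BCYRN1 encodes BC200, a primate RNA that binds poly(A)-binding protein and represses translation, and that is known from dendrites of neurons and from tumour cells. RN7SL1 and RN7SL2 encode 7SL, the RNA scaffold of the signal recognition particle (SRP), which pauses translation of secretory proteins and brings the ribosome to the endoplasmic reticulum. The SRP9 and SRP14 proteins bind the Alu domain of 7SL and a related domain at the 5′ end of BC200. RN7SK encodes the nuclear 7SK RNA, which holds the elongation factor P-TEFb inactive, and RMRP and RPPH1 encode the RNA subunits of RNase MRP and RNase P, which process pre-rRNA and pre-tRNA.

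The reference transcripts of these genes (GENCODE release 29, GRCh38) bear on what a poly(A) library and a read counter can register of them. The longest run of A in BCYRN1 was 11 bases, and its most A-rich window of 40 bases held 33 A. A run of at least 11 A was present in 5.3% of the 206694 annotated transcripts. In RN7SL1 and RN7SL2 the longest run was 4 bases, and the richest windows held 12 and 13 A. The part of this difference in what the poly(A) selection retained was not tested.

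The 7SL genes were nearly identical, with 98.3% of aligned positions the same in RN7SL1 and RN7SL2. No stretch of 150 bases of BCYRN1 occurred in another annotated transcript on either strand. In contrast, 99 of the 151 such stretches of RN7SL2 also occurred in RN7SL1, its overlapping gene model AL139099.4 or the copies RN7SL4P and RN7SL5P, so counts of RN7SL2 are uncertain by what the aligner and counter did with reads that fit several loci.

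BCYRN1 (ENSG00000236824, chr2:47335315-47335514, plus strand, 200 bases, 53.0% GC) lies in an intron of the lincRNA AC106869.1, which is on the opposite strand and had 26 to 140 counts. BCYRN1 was high in input and low in mock, dsRNA and silvestrol condensates, and its level in PEG pellets lay within the input range. In input it was at 926, 215 and 300 normalised CPM in replicates 1, 2 and 3, from 20260, 10269 and 10700 counts. In mock condensates it was at 90.6, 34.1 and 23.3 normalised CPM, from 3833, 1400 and 827 counts. Replicate 1 was the highest library in both groups, and no mock library reached the lowest input library.

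In dsRNA condensates BCYRN1 was at 105, 31.8 and 30.5 normalised CPM, and in silvestrol condensates at 59.6, 34.2 and 21.4. In PEG pellets it was at 463, 358 and 383. The mock, dsRNA and silvestrol libraries overlapped each other and all lay below every input and PEG library, whereas the PEG libraries lay between the highest and the second input library. The spread within groups was wide, with a CV of 80.8% in input, 73.3% in mock, 76.3% with dsRNA and 50.6% with silvestrol against 13.7% with PEG. The group means were 480 ± 388 (input), 401 ± 55.1 (PEG), 55.6 ± 42.4 (dsRNA), 49.4 ± 36.2 (mock) and 38.4 ± 19.4 (silvestrol) normalised CPM (SD, n = 3 each). Input and PEG did not separate in that order, nor did dsRNA, mock and silvestrol.

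**Figure D1:**
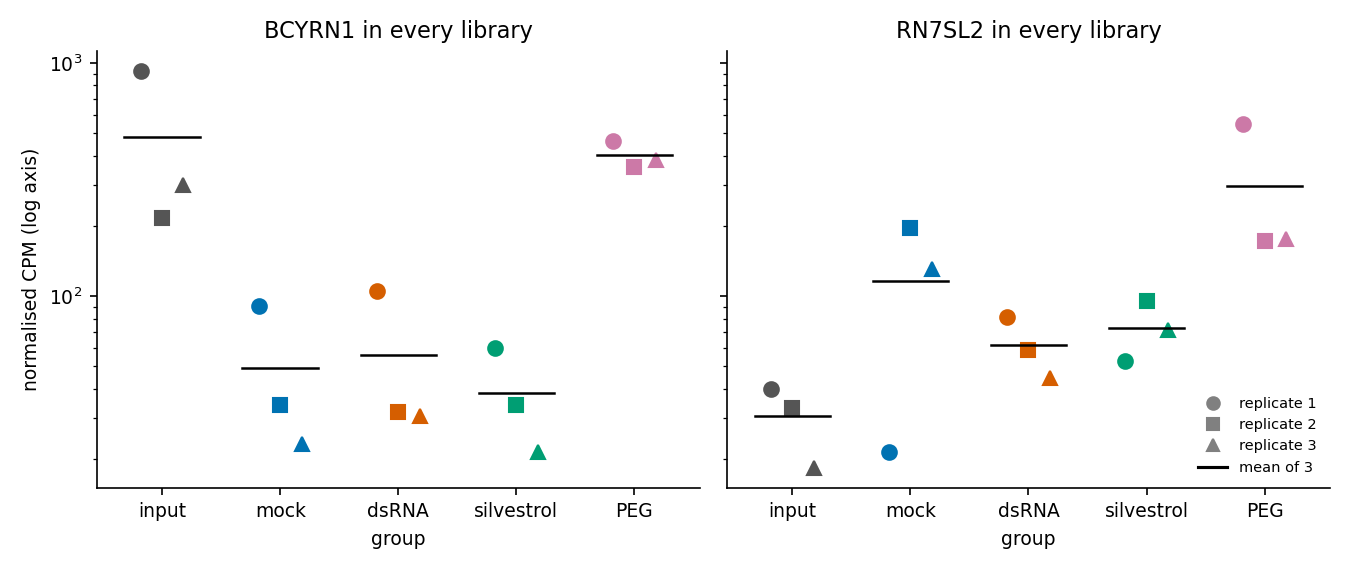
Normalised CPM (log axis) of BCYRN1 and RN7SL2 in each of the 15 libraries by group, with a marker shape for each replicate and a line at the mean of 3. BCYRN1 is low in mock, dsRNA and silvestrol (21.4 to 105) and high in input and PEG (215 to 926), and RN7SL2 is highest in PEG and widest in mock (21.5 to 196).

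Per kilobase, the mean level of BCYRN1 in input was 2400 normalised CPM, which ranked 2 among the 20855 genes kept. It ranked 18 in PEG pellets at 2007 normalised CPM per kilobase. In the other pellets its rank fell, to 74 with dsRNA, 84 in mock and 112 with silvestrol, at 278, 247 and 192 normalised CPM per kilobase. The input mean came from 4628, 1073 and 1501 normalised CPM per kilobase in replicates 1, 2 and 3. BCYRN1 thus had among the most counts per length in the input libraries and, still, ranked within the first 112 of 20855 in each pellet. These are ranks among poly(A) libraries, and what the selection retained of BCYRN1 was not tested.

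The fold changes of BCYRN1 followed from these levels. Its level was 9.42-fold lower in mock condensates than in input (log2 fold change -3.24, SE 0.685), 8.45-fold lower with dsRNA (-3.08, SE 0.672) and 12.1-fold lower with silvestrol (-3.60, SE 0.603). Among the 20855 fold changes of each comparison, these ranked 4, 5 and 3 from the lowest. With PEG the difference from input was -0.25 (SE 0.458), at the 40.6th percentile of all genes. BCYRN1 was 1 of the 2 RNAs tested that was called lower in each of the first 3 comparisons with edgeR's quasi-likelihood test at an adjusted p under 0.05 (adjusted p = 0.0128, 0.00989 and 0.00407), and PEG against input gave an adjusted p of 0.691. Of all genes tested, 13.1% were called lower in mock, 15.9% with dsRNA, 15.1% with silvestrol and 21.9% with PEG; since the fall was known when BCYRN1 was chosen, nothing is read from these calls.

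The size of this difference depended on the replicate 1 libraries. The 926 normalised CPM of input replicate 1 were 4.31 times those of the lowest input library. Without that library, the log2 fold changes were -2.35 in mock, -2.15 with dsRNA and -2.73 with silvestrol, each still called lower by edgeR. Without replicate 1 of the pellet instead, they were -4.02, -3.91 and -4.08. With the replicate number as a block they were -3.18, -3.01 and -3.43. The mock call was lost without mock replicate 2 (adjusted p = 0.06) and without mock replicate 3 (adjusted p = 0.0541), where the log2 fold changes were -3.03 and -2.90. Leaving out input replicate 1 also turned the direction of PEG against input, from -0.25 to 0.70 (edgeR adjusted p = 0.0046). The levels of BCYRN1 against input were known when it was chosen, so nothing is read from the calls in these fits either.

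Replicate 1 was the highest library for BCYRN1 in all 5 groups. The same held for 1840 (16.8%) of the 10921 genes whose mean log2 CPM reached 3. The pooled SD of BCYRN1 within groups was 0.87 on the log2 scale, which ranked 28 among these 10921 genes, whose median was 0.17. Replication-dependent histone genes, whose mRNAs end without a poly(A) tail, were also highest in replicate 1 of every group. Summed over 71 genes they were at 245, 167 and 157 normalised CPM in input, 169, 114 and 107 in mock, 159, 108 and 113 with dsRNA, 155, 108 and 110 with silvestrol and 491, 364 and 379 with PEG. Their part in the levels of BCYRN1 was not tested.

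BCYRN1 was also compared directly between pellets, in fits without the input libraries. Its level with PEG exceeded that in mock by 3.06 on the log2 scale (SE 0.423, 8.34-fold), and the 3 PEG libraries did not overlap the 3 mock libraries. With any one of the 6 libraries left out it was 2.72 to 3.87. This difference follows from the levels known when BCYRN1 was chosen and is a description; 27.0% of all genes were called higher and 27.6% lower in this comparison. dsRNA against mock gave 0.17 (SE 0.608) and silvestrol against mock -0.36 (SE 0.529), both with an adjusted p of 1 in edgeR, and both directions turned when single libraries were left out. In either of these comparisons 0% of genes were called higher and 0% lower by edgeR, with 475 and 141 genes at an unadjusted p under 0.05 and 51 and 0 called by DESeq2. With the replicate number as a block, edgeR called 44 genes higher and 485 lower for dsRNA against mock. For silvestrol against mock it then called 2 higher and 0 lower.

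RN7SL2 (ENSG00000274012, chr14:49862550-49862849, minus strand, 300 bases, 62.7% GC) lies in an intron of the lincRNA AL627171.2 on the same strand, which had 2 to 42 counts. RN7SL2 was lowest in input and highest in PEG pellets, the opposite of BCYRN1 in mock, dsRNA and silvestrol condensates. In input it was at 39.9, 33.2 and 18.3 normalised CPM in replicates 1, 2 and 3, from 874, 1589 and 653 counts. In dsRNA condensates it was at 81.6, 58.8 and 44.3 (3362, 2539 and 1627 counts), and with silvestrol at 52.7, 94.8 and 71.6 (2193, 3717 and 3505 counts). Every dsRNA and silvestrol library lay above every input library.

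In PEG pellets RN7SL2 was at 544, 172 and 175 normalised CPM, from 7121, 3350 and 3389 counts, and in mock condensates at 21.5, 196 and 130, from 909, 8045 and 4629 counts. PEG replicate 1 was the highest of the 15 libraries, and mock was the one group that spanned others: its replicate 1 lay within the input range, and its replicate 2 above 2 of the 3 PEG libraries. The highest mock library was 9.12 times the lowest, against at most 3.16 times within any other group. The group means were 297 ± 214 (PEG), 116 ± 88.2 (mock), 73 ± 21.1 (silvestrol), 61.5 ± 18.8 (dsRNA) and 30.5 ± 11.1 (input) normalised CPM (SD, n = 3 each), in which mock did not separate from any neighbour and dsRNA and silvestrol overlapped. The pooled within-group SD was 0.94 on the log2 scale, rank 23 of 10921.

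RN7SL2 rose against input in 3 of the 4 pellets. The log2 fold change was 3.32 with PEG (SE 0.487, 9.98-fold, edgeR adjusted p = 0.000695), 1.31 with silvestrol (SE 0.301, 2.48-fold, adjusted p = 0.013) and 1.06 with dsRNA (SE 0.306, 2.09-fold, adjusted p = 0.0286). For mock it was 1.97 (SE 0.669) and missed the threshold at an adjusted p of 0.0625, although it was larger than the called differences with dsRNA and silvestrol. With the replicate number as a block it was 1.69 and was called (edgeR adjusted p = 0.000582). Same-numbered libraries did not share a direction, however. RN7SL2 was lower in mock than in input in replicate 1 (21.5 against 39.9 normalised CPM). It was higher in replicates 2 and 3 (196 against 33.2 and 130 against 18.3). RN7SL2 was thus 1 of the 2 RNAs tested that was called higher with dsRNA, silvestrol and PEG, and 0 of 2 was called higher in mock, where 13.0% of all genes were (16.3% with dsRNA, 14.9% with silvestrol and 21.0% with PEG).

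**Figure D2:**
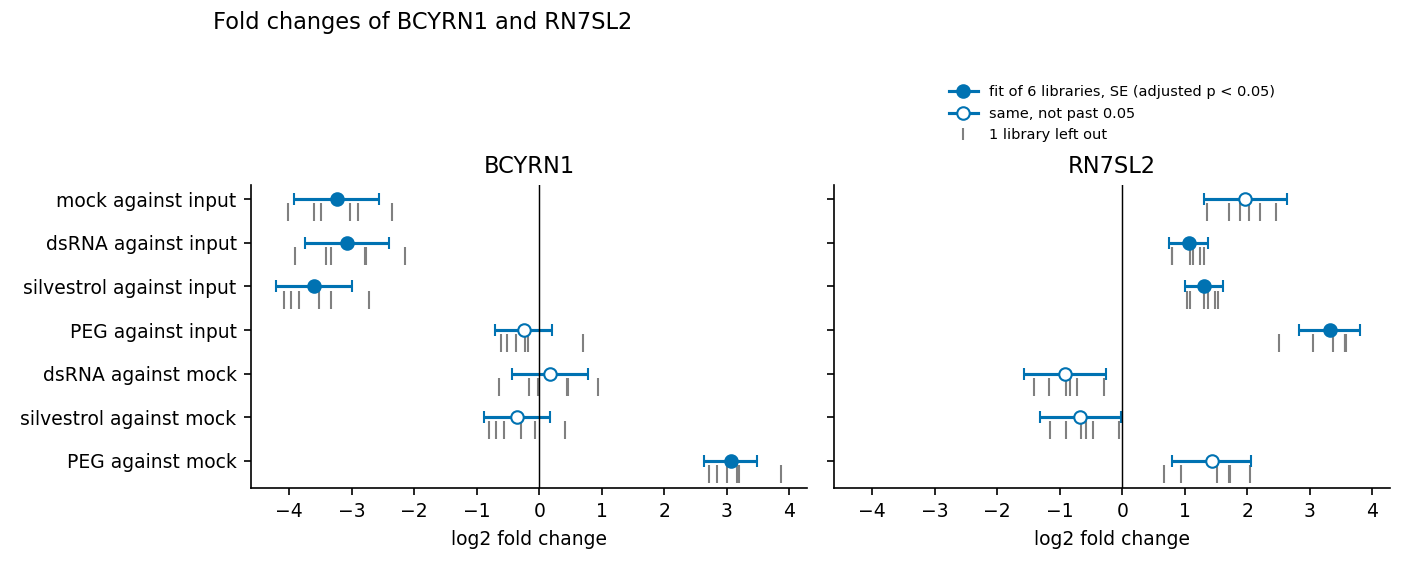
Log2 fold change (horizontal axis) of BCYRN1 and RN7SL2 in the 7 comparisons, as points with SE bars, filled where edgeR's adjusted p was under 0.05, and as grey ticks with each of the 6 libraries left out in turn. BCYRN1 lies below 0 in mock, dsRNA and silvestrol against input and at 3.06 for PEG against mock, while RN7SL2 lies above 0 against input in all 4.

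The PEG rise of RN7SL2 held without any one library (2.51 to 3.59, lowest without PEG replicate 1). The other calls were narrower. In mock it was called without mock replicate 1 (2.47, adjusted p = 0.00799, edgeR) and in no other fit with 1 library left out. With dsRNA the call remained in 2 of the 6 such fits and with silvestrol in 5 of 6. An offset for the GC trend of each library lowered the log2 fold change to 0.50 with dsRNA (edgeR adjusted p = 0.331) and to 0.76 with silvestrol (0.146).

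Between pellets, RN7SL2 differed by 1.43 for PEG against mock (SE 0.634, edgeR adjusted p = 0.077), by -0.92 for dsRNA against mock (SE 0.652) and by -0.67 for silvestrol against mock (SE 0.648), the latter pair with an adjusted p of 1. None of these passed the threshold, and all of them use the mock libraries, of which replicate 1 lay apart. PEG against mock rested on single libraries: it was 2.04 without mock replicate 2 (edgeR adjusted p = 0.0232), 0.94 without mock replicate 1 (0.0746) and 0.67 without PEG replicate 1 (0.416). With the replicate number as a block, dsRNA against mock gave -0.605 and was called lower (edgeR adjusted p = 2e-06). With the GC offset added to the block it was -0.671 and was not called (edgeR adjusted p = 0.265). Same-numbered libraries did not share a direction. RN7SL2 was higher with dsRNA than in mock in replicate 1 (81.6 against 21.5 normalised CPM). It was lower in replicates 2 and 3 (58.8 against 196 and 44.3 against 130), so nothing is read from that call. Per kilobase, RN7SL2 ranked 392 of 20855 in input at a mean of 102 normalised CPM per kilobase, and 104, 83, 54 and 56 in dsRNA, silvestrol, mock and PEG pellets at 205, 243, 387 and 991.

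The counts of BCYRN1 and RN7SL2 in the same library give a ratio that does not depend on scaling between libraries. BCYRN1 had 23.2, 6.46 and 16.4 counts per RN7SL2 count in input replicates 1, 2 and 3. The ratio was 4.22, 0.174 and 0.179 in mock, 1.28, 0.54 and 0.689 with dsRNA and 1.13, 0.361 and 0.299 with silvestrol. With PEG it was 0.851, 2.08 and 2.19. Every pellet library lay below every input library, and mock replicates 2 and 3 were the lowest of all. Replicate 1 was the highest library in input, mock, dsRNA and silvestrol and the lowest in PEG.

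**Figure D3:**
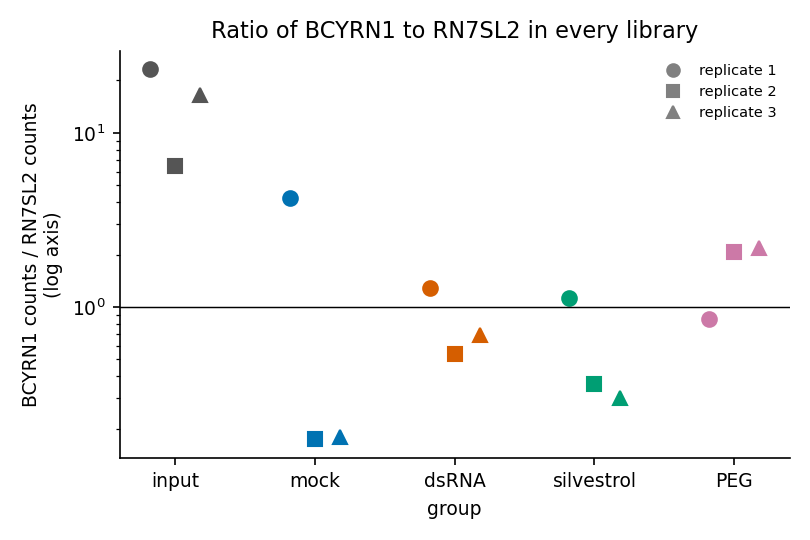
BCYRN1 counts divided by RN7SL2 counts (log axis) in each of the 15 libraries, by group, with a marker shape for each replicate and a line at 1. All input libraries lie above all pellet libraries (6.46 to 23.2 against 0.174 to 4.22).

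RN7SL1 (ENSG00000276168, chr14:49586580-49586878), RN7SK (ENSG00000283293, chr6:52995621-52995948), RPPH1 (ENSG00000277209, chr14:20343075-20343407) and one RMRP identifier (ENSG00000277027, chr9:35657754-35658017) had 0 counts in all 15 libraries. A count of 0 allows up to 3 counts, or 0.0639 to 0.196 CPM depending on the library, by counting error alone. Each of these genes lies wholly within the exons of another gene model on the same strand. RN7SL1 shares 299 of 299 bases with AL139099.4, RN7SK 328 of 328 with a second 7SK model (ENSG00000202198), RPPH1 333 of 333 with AL355075.4, and the RMRP identifier 264 of 264 with the other RMRP identifier (ENSG00000269900, chr9:35657751-35658018).

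The models that cover them were also nearly empty. AL139099.4 had 0 to 6 counts per library, the second 7SK model 1 to 11 and AL355075.4 2 to 9. The other RMRP identifier had 15 counts in all, 8, 4 and 1 of them in PEG replicates 1, 2 and 3 and 1 each in input replicate 2 and silvestrol replicate 1. Across the annotation, 359 of 360 genes of at most 350 bases that other models cover in this way had 0 counts in every library (99.7%), against 6143 of 11556 genes of that size that are not covered (53.2%). A 0 for RN7SL1, RN7SK, RPPH1 or this RMRP identifier is therefore not a measurement of its RNA, since reads that fall on both models cannot be placed from the files. The low counts of AL139099.4, the second 7SK model and the other RMRP identifier carry the same limit. Of their bases 299 of 300, 328 of 331 and 264 of 268 are shared, in that order.

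The copies of 7SL and 7SK elsewhere in the genome were low. The 678 other RN7SL loci, RN7SL3 among them, summed to 215 to 598 counts per library (9.82 to 28.4 normalised CPM), and 15 of them were kept. RN7SL2 alone had more counts than all of them together in every library. Of the 15, 1 was called higher and 4 lower with PEG against input, where 21.0% and 21.9% of all genes were, at a median log2 fold change of -0.89. With silvestrol 2 were called higher and 0 lower (14.9% and 15.1% of all genes). In mock and with dsRNA 0 were called in either direction, where 13.0% to 16.3% of all genes were. The 4 lower with PEG and the 2 higher with silvestrol are near these shares. The 293 RN7SKP loci, copies of 7SK, summed to 46 to 164 counts.

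RN7SL3, the third annotated 7SL gene, followed RN7SL2 in part. It had 61, 39 and 28 counts in input, 35, 161 and 84 in mock, 123, 59 and 30 with dsRNA, 87, 71 and 68 with silvestrol and 183, 73 and 90 with PEG. In normalised CPM, the highest library was the same for RN7SL3 and RN7SL2 in input, mock, dsRNA and PEG, and differed with silvestrol. In counts it also differed in input, where RN7SL3 was highest in replicate 1 and RN7SL2 in replicate 2. RN7SL3 rose with PEG by 2.44 against input (SE 0.618, edgeR adjusted p = 0.0102) and by 1.69 against mock (SE 0.553, adjusted p = 0.0227), and its differences in mock (0.81), dsRNA (0.35) and silvestrol (0.38) against input did not pass the threshold.

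Of 15 other short structured RNAs listed, 14 were in the files and 2 were kept, RN7SL3 and SNORD3A. SNORD3A, the U3 RNA that guides pre-rRNA cleavage, had 14, 17 and 31 counts in input and 70, 45 and 42 with PEG, and rose by 2.43 against input (SE 0.459, edgeR adjusted p = 0.00236) and by 2.90 against mock (SE 0.403, adjusted p = 0.000118). In mock, dsRNA and silvestrol condensates it had 14 to 46 counts and was not called. The Y RNAs and vault RNAs, which are further products of RNA polymerase III, had at most 4 counts in any library.

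Other short genes showed no single direction. Besides BCYRN1 and RN7SL2, 494 genes of at most 350 bases were tested, and their median log2 fold change against input was 0.13 in mock, 0.11 with dsRNA, 0.15 with silvestrol and -0.26 with PEG. With PEG 92 of them were called higher and 64 lower, where 21.0% and 21.9% of all genes were. The median of all genes was 0.019, 0.030, 0.027 and -0.053 in the same order.

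The mRNAs of proteins that bind these RNAs were counted in the same fits, and their counts stand beside the shares of all genes called lower (13.1% in mock, 15.9% with dsRNA, 15.1% with silvestrol and 21.9% with PEG) and higher (13.0%, 16.3%, 14.9% and 21.0%). Of 8 mRNAs of SRP proteins and the SRP receptor, 4 were called lower in mock, 6 with dsRNA and 6 with silvestrol and 0 higher, at medians of -0.58, -0.69 and -0.70. With PEG 4 were called higher and 2 lower (median 0.32), the latter close to the share of all genes. SRP14 mRNA was at 384, 349 and 342 normalised CPM in input, 235, 225 and 218 in mock, and 797, 1068 and 1015 with PEG, and the groups did not overlap. It fell by 0.62 in mock (SE 0.115) and rose by 1.45 with PEG (SE 0.156; edgeR adjusted p = 0.00822 and 0.000213). SRP9 mRNA, whose protein pairs with SRP14, fell in all 4 pellets, by 0.87 in mock, 1.08 with dsRNA, 1.06 with silvestrol and 0.62 with PEG.

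The mRNAs of 10 RNase P and RNase MRP proteins, of 11 listed, were counted next. In mock 6 of them were called lower, with dsRNA 5 and with silvestrol 7, and 0 higher, at medians of -0.49, -0.50 and -0.51. With PEG 7 were called higher and 0 lower (median 0.75). RPP30, a subunit of both enzymes, was at 65.6, 43.8 and 43.1 normalised CPM in input, 25.0, 19.4 and 25.6 in mock and 76.8, 80.2 and 81.8 with PEG. It fell by 1.08 in mock (SE 0.197, edgeR adjusted p = 0.00792) and rose by 0.67 with PEG (SE 0.183, adjusted p = 0.0144). RPP40 mRNA fell in the other pellets, with log2 fold changes of -1.01 in mock, -1.22 with dsRNA and -1.13 with silvestrol, and rose with PEG (0.77, edgeR adjusted p = 0.0212).

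Proteins of the 7SK particle and P-TEFb gave no common direction. Of 7 mRNAs, 1, 2 and 2 were called higher in mock, dsRNA and silvestrol condensates and 0 lower, and with PEG 3 were higher and 2 lower. LARP7, which binds and stabilises 7SK, rose in each pellet, by 1.24 in mock, 1.38 with dsRNA, 1.18 with silvestrol and 1.39 with PEG. CCNT2, a cyclin subunit of P-TEFb, fell by 1.17 with PEG. Of 6 mRNAs of BC200-binding proteins, which include SRP9 and SRP14, 3 were called lower and 0 higher in each of mock, dsRNA and silvestrol, and 2 were called in each direction with PEG. SSB, which encodes the La protein, fell by 0.51 in mock and rose by 0.88 with PEG, and FMR1 fell by 1.19 with PEG.

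**Figure D4:**
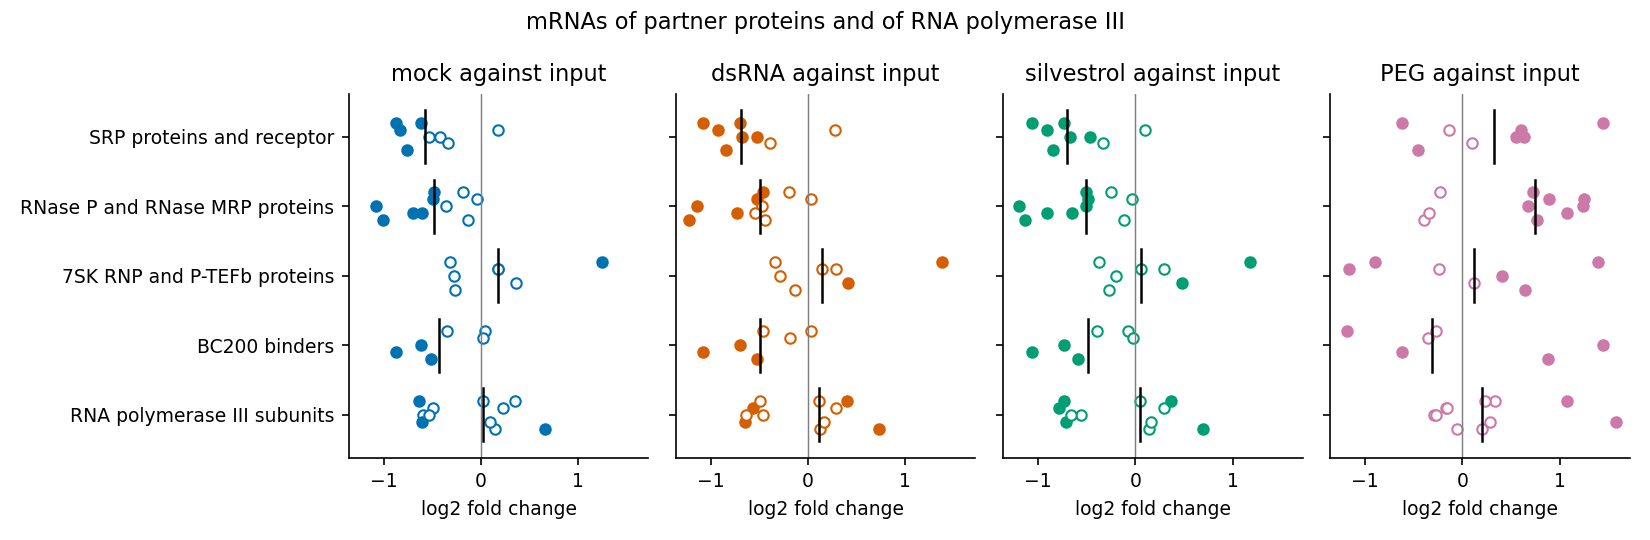
Log2 fold change against input (horizontal axis) of each mRNA of 5 lists (vertical axis) in mock, dsRNA, silvestrol and PEG pellets, filled where edgeR's adjusted p was under 0.05, with a line at the list's median. The SRP list moves from a median of -0.58 in mock to 0.32 with PEG, and the RNase P and RNase MRP list from -0.49 to 0.75.

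Among 11 mRNAs of RNA polymerase III subunits and its repressor MAF1, 1 was called higher and 2 lower in mock, 2 and 2 with dsRNA, 2 and 3 with silvestrol and 2 and 0 with PEG, at medians of 0.02, 0.11, 0.05 and 0.20. In mock these counts are near the shares of all genes (13.0% higher and 13.1% lower), as is the count called higher with PEG (21.0%). POLR3GL, one of a pair of alternative subunits, rose by 1.58 with PEG (SE 0.131, edgeR adjusted p = 0.000147), and POLR3K by 1.08. In dsRNA and silvestrol condensates against mock, 0 mRNAs of any of these lists were called by edgeR, where 0% of all genes were called higher and 0% lower. With PEG against mock, 6 of 8 SRP mRNAs and 7 of 10 RNase P and RNase MRP mRNAs were called higher and 0 lower, with medians of 0.77 and 1.40. Of all genes, 27.0% were called higher and 27.6% lower in that comparison.

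The genes whose log2 CPM followed the RNAs most closely over the 15 libraries were listed as a description, since the libraries share groups and depth. For BCYRN1 they were PLPP4, HCCS and RTCA (Pearson's r 0.991, 0.984 and 0.983, among 10921 genes), which moved over a much smaller range. HCCS, which encodes the enzyme that attaches haem to cytochrome c, was at 39.9, 26.6 and 29.1 normalised CPM in input, 17.4, 12.9 and 12.6 in mock and 30.7, 25.6 and 28.2 with PEG. For RN7SL2 they were MALAT1, ZBTB20 and ENKD1 (0.839, 0.827 and 0.805). MALAT1, a nuclear lncRNA, was at 211 to 232 normalised CPM in input, 224 to 306 in mock and 428 to 782 with PEG, whereas NEAT1, another nuclear lncRNA, was at 545 to 859, 708 to 1270 and 273 to 483. The part of nuclear RNA in the levels of RN7SL2 was not tested.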

How the data were processed

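Poly(A) RNA of input CE and of pelleted condensates from mock, dsRNA, silvestrol and PEG reactions was sequenced in 3 replicates each. The authors deposited read counts per gene for every library, not normalised; their processing notes name Trimmomatic 0.36, STAR 2.5.2b and featureCounts of Subread 1.5.2 with GRCh38, while strand and multi-mapping options are not given in the sources used here. Groups came from the labels, which call the replicates biological without saying whether they were separate cultures, so p-values measure the spread between these libraries. Symbols came from GENCODE release 29.

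Genes that reached 10 counts in 2 or more replicates of any 1 condition were kept (20855). For each of 7 comparisons, the 6 libraries concerned were fitted alone in edgeR 4.0.16 (TMM, quasi-likelihood F test) in R 4.3.3, and p-values were adjusted over all genes kept by the Benjamini-Hochberg procedure. The method was tested on simulated data. DESeq2 1.42.0, which the study's methods name, was an alternative, as were other scalings and filters, all 5 groups in 1 fit, a GC offset, a replicate block and each library left out. Alignments used Biopython 1.88 and figures matplotlib 3.10.9. Depth per library sets the floor given for a count of 0, which covers counting error only. The members, lists and named genes (the members, the 3 genes most correlated with each, and up to 4 called genes of a list) were chosen with earlier results of these data known; SNORD3A, RN7SL3, SRP14 and RPP30 are the list genes shown by library. Sequences of the RNAs are not reported here. Mitochondrial rRNAs, RNA integrity and pelleted RNA amounts were not analysed here.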

Additional observations from a re-analysis of the deposited data

Results flagged for a closer look

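BCYRN1 was the one result that met a criterion for a closer look. Its difference from the shared input libraries was not the same in PEG pellets as in mock condensates, and PEG against mock, fitted directly, gave 3.06 on the log2 scale (SE 0.423). Since the levels of BCYRN1 against input were known when it was chosen, this is a description and not an independent test. The 3 PEG libraries (358 to 463 normalised CPM) all lay above the 3 mock libraries (23.3 to 90.6).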

How the results depend on the processing

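Of 210 alternative log2 fold changes of BCYRN1 and RN7SL2, 184 kept their direction and their side of the threshold, 11 lost it, 9 gained it and 6 changed direction. Fitting all 5 groups together, no filter and the replicate block each raised the RNAs called higher in mock from 0 to 1, as did the replicate block with the GC offset. All 5 groups in 1 fit and the GC offset each lowered those called higher with dsRNA and with silvestrol from 1 to 0. No filter and the GC offset raised those called higher for PEG against mock from 1 to 2. The replicate block called 1 RNA lower for dsRNA against mock, RN7SL2 at -0.605 (edgeR adjusted p = 2e-06), and turned BCYRN1 with PEG against input to 0.071. That call of RN7SL2 was lost when the GC offset was added to the block (-0.671, edgeR adjusted p = 0.265). With 1 library left out, the RNAs called higher ranged from 0 to 1 in mock, dsRNA and silvestrol and from 1 to 2 with PEG against input and against mock, and those called lower in mock from 0 to 1. BCYRN1 then ranged from -0.611 to 0.70 for PEG against input (0.70 without input replicate 1), from -0.648 to 0.939 for dsRNA against mock and from -0.808 to 0.41 for silvestrol against mock. The cause was not tested.

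Deviations of same-numbered libraries correlated at 0.0583 to 0.739 over the 20855 genes kept (26 of 30 pairs over 0.1) and at 0.13 to 0.861 over the 16612 genes that reach the limit in every condition (30 of 30). Libraries with other replicate numbers correlated at -0.568 to 0.396 (13 of 60 pairs over 0.1) and at -0.747 to 0.583 (20 of 60), in the same order. Same-numbered pairs were thus over 0.1 more often with either filter, but not all of them were over the genes kept. The main fits did not use the numbers as pairs, and calls that the replicate block changes are given with both values. In the replicate block BCYRN1 gave -3.18, -3.01 and -3.43 in mock, dsRNA and silvestrol against input. Scaling by library size alone moved the median of all genes to -0.416 with PEG against input and -0.595 against mock. The totals limit statements on RNAs at or near 0, and for RN7SL1, RN7SK, RMRP and RPPH1 the overlapping gene models do so as well.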
